A study of Homo sapiens with 6 samples.

Results

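Very CpG-dense differentially methylated regions of HepG2 cells were taken from the lists of regions that differed between cells overexpressing DNMT3A and control cells. A listed region belonged to the set when it held at least 20 counted CpG sites per 100 bp, whatever its direction, and no methylation value entered the choice. The set had 585 of the 4344 listed regions: 193 of 1483 in pair 1, 191 of 1433 in pair 2 and 201 of 1428 in pair 3. HepG2 is an established human hepatocellular carcinoma line. Control cells, whose genotype the labels give as WT, had received a control lentivirus, and the others a lentivirus overexpressing DNMT3A. Each group had 3 libraries of reduced representation bisulfite sequencing, and each list compares 1 overexpressing with 1 control library that share a number (a pair). The sources used here do not describe the DNMT3A construct, clonality, or whether libraries are separate cultures. P-values across libraries may therefore rest on technical spread alone.

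DNMT3A encodes a de novo DNA methyltransferase, which adds methyl groups to cytosines of CpG dinucleotides that carried none. CpG dinucleotides are rare in most of the human genome and crowd into CpG islands, many of them at promoters, and most islands at active or poised genes are unmethylated. Imprinted control regions are an exception, since they are methylated on the copy from one parent. Cancer lines such as HepG2 carry methylation at many islands that are free of it in normal tissue.

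Mapped reads ranged from 25764323 to 29924507 per library. The lists give a mean methylation level per region and library (a fraction from 0 to 1) but no reads per region, so no level has a known depth or an interval. A region is listed because it was called, so its difference and direction describe the calls.

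The counted sites were first set against the reference sequence. In 53 very CpG-dense regions that lay wholly inside a RefSeq promoter window (250 bp before to 50 bp after a gene's start, GRCh38.p14), the number of counted sites was a median of 2.0 times the number of CG dinucleotides (interquartile range 2.0 to 2.11). The ratio was at least 1.5 in 50 of the 53 (94.3%), as cytosines counted on both strands would give. Among 64 other listed regions inside such windows it was at least 1.5 in 38 (59.4%). The very CpG-dense regions held a median of 13.8 CG dinucleotides per 100 bp (range 9.90 to 23.9) against 8.28 in the others, and had a GC share of 78.0% against 69.4%. The rule selects on counted sites per length, so the higher ratio and CG density of the set follow in part from the choice. A region of a given sequence has a higher counted density where the ratio is higher, so the threshold of 20 depends on the ratio as well as on the sequence. Of the other regions inside windows, 18 had at least 10 CG dinucleotides per 100 bp, and 16 of these had a ratio under 1.5. Contrasts between the set and the other regions are therefore contrasts of counted density, and not of sequence alone. The lists do not say on which strands sites were counted. In all 191 listed regions whose first base could be placed in a window, that base belonged to a CG dinucleotide, as did the last base in all 189 that could be placed.

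The parts of a few regions inside promoter windows are shown because results below rest on them. They are given 5′ to 3′ on the strand of the named gene, from RefSeq (GRCh38.p14), with CG dinucleotides in capitals. The regions of PAQR9 and TICAM2-AS1 were listed as higher in all 3 pairs, those of PLEKHG5 and GRB10 in opposite directions, that of TMEM168 had the largest listed difference of the set, that of ADAMTS2 was the densest, and that of PLAGL1 is at an imprinted promoter.
PAQR9, chr3:142963625-142963780, minus strand: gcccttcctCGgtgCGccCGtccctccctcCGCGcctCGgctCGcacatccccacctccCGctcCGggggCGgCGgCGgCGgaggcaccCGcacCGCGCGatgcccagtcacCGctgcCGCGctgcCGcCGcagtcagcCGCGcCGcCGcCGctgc
TICAM2-AS1, chr5:115602125-115602204, plus strand: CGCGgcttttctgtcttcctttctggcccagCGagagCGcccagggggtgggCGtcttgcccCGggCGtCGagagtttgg
PLEKHG5, chr1:6485479-6485550, minus strand: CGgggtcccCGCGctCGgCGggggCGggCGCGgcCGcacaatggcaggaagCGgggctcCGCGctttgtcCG
GRB10, chr7:50783041-50783146, minus strand: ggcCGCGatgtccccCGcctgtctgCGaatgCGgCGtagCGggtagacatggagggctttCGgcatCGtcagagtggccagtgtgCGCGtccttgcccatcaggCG
TMEM168, chr7:112790357-112790412, minus strand: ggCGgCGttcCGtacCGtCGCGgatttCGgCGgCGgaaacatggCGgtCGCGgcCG
ADAMTS2, chr5:179345603-179345669, minus strand: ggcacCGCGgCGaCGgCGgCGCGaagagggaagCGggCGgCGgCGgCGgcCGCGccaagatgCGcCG
PLAGL1, chr6:144008296-144008509, minus strand: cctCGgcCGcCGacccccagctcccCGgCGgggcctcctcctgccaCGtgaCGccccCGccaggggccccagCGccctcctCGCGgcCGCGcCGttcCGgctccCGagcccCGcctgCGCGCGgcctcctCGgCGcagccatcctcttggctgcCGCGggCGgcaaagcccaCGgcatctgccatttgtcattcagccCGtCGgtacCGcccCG
The 56 bp of TMEM168 hold 13 CG dinucleotides and were counted as 14 sites, whereas the 67 bp of ADAMTS2 hold 16 and were counted as 33. Promoter windows met by a very CpG-dense region (178 windows) had a median of 32 CG dinucleotides per 300 bp, against 20 in the 225 windows met by other listed regions alone and 14 over all 35116 windows. This contrast too follows in part from the density rule. The MspI site CCGG, which reads the same on both strands and contains a CG dinucleotide, was present in 89.9%, 86.7% and 63.1% of these windows.

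Gains of methylation made up a smaller share of the very CpG-dense regions than of the rest. Of the very CpG-dense regions of pair 1, 132 had more methylation with DNMT3A and 61 had less. The counts were 128 and 63 in pair 2, and in pair 3 they were 128 and 73. The higher share was 68.4% (95% exact binomial interval 61.3 to 74.9), 67.0% (59.9 to 73.6) and 63.7% (56.6 to 70.3), while 82.1%, 81.7% and 81.1% of all listed regions were higher. Among the other regions the share was 84.1%, 83.98% and 83.9%. The very CpG-dense share was thus lower in 3 of 3 pairs, by 17.6 percentage points ± 2.35 (SD, n = 3 pairs; exact two-sided sign-flip test, p = 0.25, the smallest that 3 pairs can give). The intervals cover the counting of regions only.

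Averaged over the pairs, the share of gains was highest at intermediate density and lower on either side. On the sparse side the pairs disagreed. Under 5 counted sites per 100 bp the share was 92.5% in pair 1, above its 88.4% at 10 to 15, but 76.1% and 68.7% in pairs 2 and 3. It averaged 79.1% ± 12.2 (SD, n = 3 pairs) under 5 counted sites per 100 bp and 84.5% ± 1.46 at 5 to 10. It was 86.8% ± 1.46 at 10 to 15, 78.7% ± 3.55 at 15 to 20, 70.4% ± 3.34 at 20 to 25 and 62.2% ± 1.43 at 25 or more. Regions just outside the threshold (density 19 to 20) numbered 71 in the pooled lists, with 80.3% gains and a median absolute difference of 0.199. Those just inside (20 to 21) numbered 75, with 73.3% gains and 0.177. At the boundary itself, the first 3 of 18 regions with a density of exactly 20 were in DNAH17 (control 0.418, overexpressing 0.604, pair 1), at chr17:81962654-81962723 (0.134 and 0.396 in pair 1) and in GFI1 (0.725 and 0.862 in pair 2). The nearest below it were NR0B1 (density 19.9; 0.525 and 0.773 in pair 3) and NR2F2 (19.8; 0.0689 and 0.331 in pair 1, 0.0762 and 0.329 in pair 2).

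**Figure D1:**
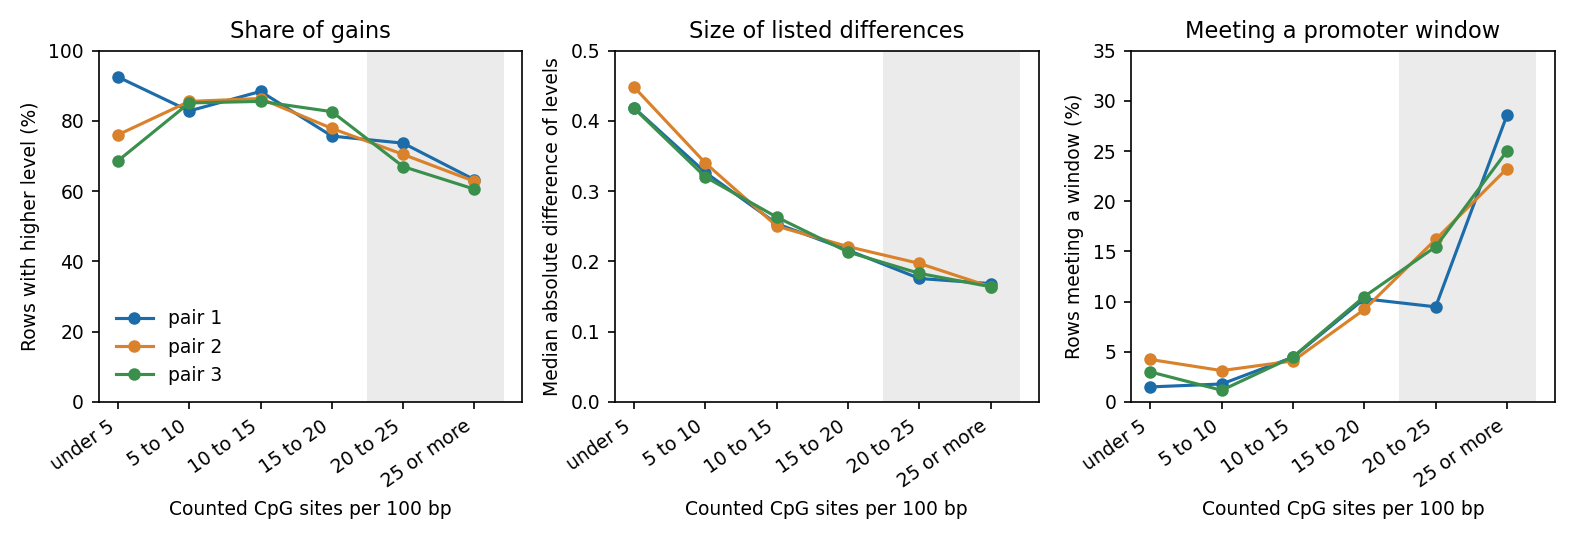
Share of gains (left), median absolute difference of levels (middle) and share of regions meeting a RefSeq promoter window (right) by counted CpG sites per 100 bp, with 1 point per pair; the grey area holds the very CpG-dense regions. Gains average 86.8% at 10 to 15 sites and 62.2% at 25 or more, the median absolute difference falls from 0.256 to 0.165, and the promoter share rises from 4.34% to 25.6%. Regions on chromosome 8 and unplaced scaffolds count as meeting no window.

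Listed differences were smaller in very CpG-dense regions, and levels were more often intermediate. The median difference of gains was 0.175, 0.173 and 0.166 in pairs 1, 2 and 3, against 0.277, 0.278 and 0.276 in the other regions. That of losses was -0.169, -0.198 and -0.183 against -0.342, -0.327 and -0.322. Very CpG-dense gains went from median control levels of 0.253, 0.220 and 0.241 to 0.438, 0.420 and 0.426, and losses from 0.482, 0.517 and 0.524 to 0.290, 0.299 and 0.316. In the control libraries, 66.3% ± 1.62 (SD, n = 3 pairs) of very CpG-dense regions stood at a control level of 0.2 to 0.8, against 52.3% ± 2.33 of the others, higher in 3 of 3 pairs (exact sign-flip p = 0.25). Very CpG-dense regions held a median of 24.0 counted sites against 10.7 (means of the 3 pairs' medians). Within bins of site number the sizes still differed: at 30 or more counted sites the median absolute difference was 0.173 ± 0.00587 against 0.246 ± 0.0144.

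**Figure D2:**
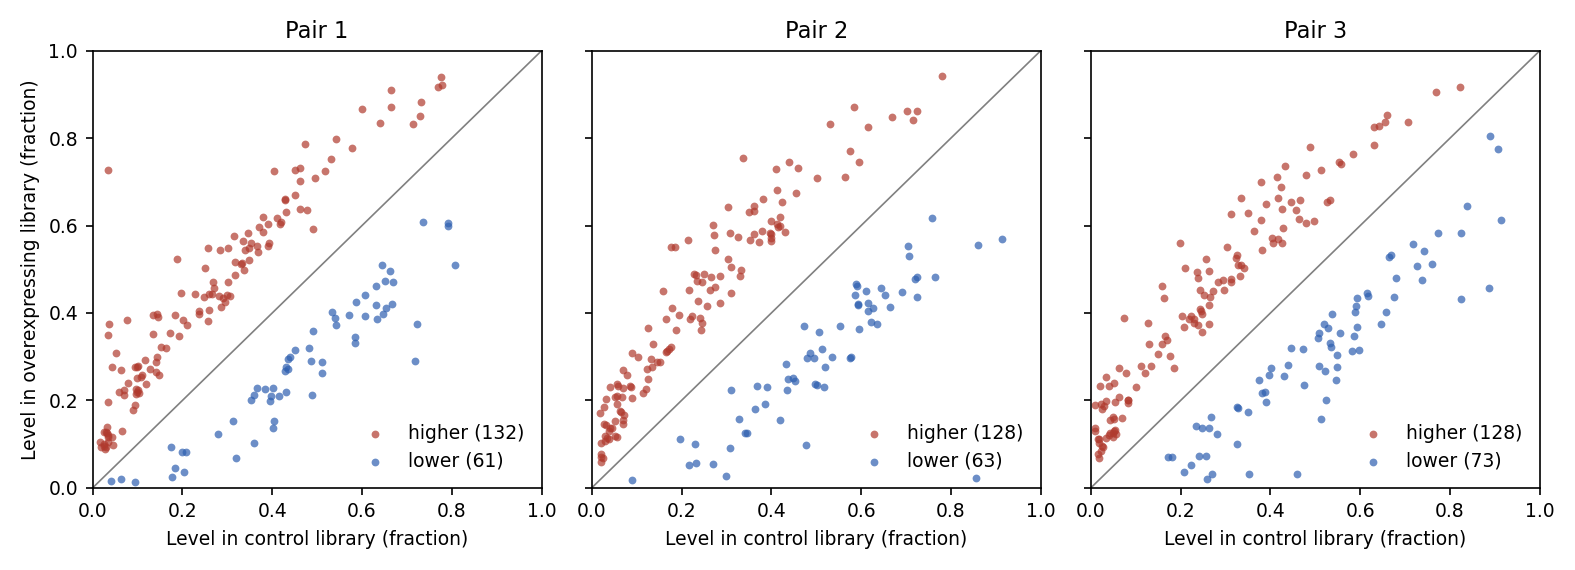
Methylation level (fraction) of each very CpG-dense region in the control library (horizontal) and the overexpressing library (vertical) of each pair, red where higher and blue where lower in the overexpressing library. In each pair 128 to 132 points lie above the line of equal levels and 61 to 73 below it; the GRID1 region of pair 1 (0.0336 and 0.727) and the TMEM168 region of pair 2 (0.857 and 0.0223) stand apart.

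The control level was examined next, because a region near 0 can hardly be listed as lower. At control levels under 0.1, gains were 96.6% ± 3.92 (SD, n = 3 pairs) of very CpG-dense regions and 99.2% ± 0.421 of the others. At 0.2 to 0.4 they were 73.6% ± 6.09 against 91.4% ± 0.983, and at 0.4 to 0.6 they were 43.1% ± 3.89 against 71.7% ± 2.46. In both of these bins, which held 176 and 141 very CpG-dense regions, the share was lower in 3 of 3 pairs (exact sign-flip p = 0.25). Within 30 or more counted sites gains were 61.8% ± 1.41 against 87.0% ± 4.57. At 10 to 14 sites they were 83.3% ± 2.77 against 88.0% ± 2.19, lower in 2 of 3 pairs (exact sign-flip p = 0.5).

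Very CpG-dense regions lay near gene ends and start sites far more often than the rest. Within 1 kb of either end of a RefSeq gene lay 50.3%, 50.5% and 50% of them, against 18.9%, 19.4% and 21.5% of the other regions. Inside a gene body, farther than 1 kb from an end, lay 36.6%, 36.8% and 39.5% against 58.0%, 59.2% and 56.3%. The rest, 12.1% ± 1.38 against 22.2% ± 0.892, were intergenic. A promoter window was met by 115 of the 585 regions, or 19.2%, 19.4% and 20.4% by pair against 4.11%, 4.59% and 4.07%. Each of these differences had the same sign in 3 of 3 pairs (exact sign-flip p = 0.25). The promoter table gave no windows on chromosome 8 or unplaced scaffolds. Regions there, 28 of them very CpG-dense, were counted as meeting none.

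Within the set, start sites were nearer to losses than to gains, a difference that was not tested. The centre of 31.4% ± 1.77 of very CpG-dense gains and 43.5% ± 2.11 of losses lay within 500 bp of the nearest start in the RefSeq promoter table, against 9.53% ± 0.601 of other regions. Distances to starts were not split by direction in the other regions. Within 1 kb of a gene end, however, lay on average 27.2% of other losses and 18.6% of other gains, a contrast of the same sign. By gene end, very CpG-dense losses stood at 55.7%, 61.9% and 47.9% in pairs 1, 2 and 3. Very CpG-dense gains stood at 47.7%, 44.9% and 51.2%, so the sign was reversed in pair 3. Of the 249 very CpG-dense regions centred within 1 kb of a start, 168 lay downstream of it and 81 upstream. The 533 other regions centred as near also lay mostly downstream, 318 against 215 upstream. For 28 regions on chromosome 8 or unplaced scaffolds the table gave no start.

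Very CpG-dense gains were found again in another pair less often than other gains, while very CpG-dense losses were found again more often than other losses. A gain was met by a gain of another list, with at least 1 bp of overlap, in 25%, 29.7% and 31.3% of very CpG-dense gains of pairs 1, 2 and 3, against 46.6%, 45.7% and 45.5% of other gains. A loss was met by a loss in 22.95%, 25.4% and 12.3% of very CpG-dense losses, against 5.85%, 6.03% and 7.61% of other losses. Both contrasts had 1 sign in 3 of 3 pairs (exact sign-flip p = 0.25), with pair 3 nearest to equality for losses. The excess in losses averaged 13.7 percentage points over the 3 lists. With the list of 1 pair left out altogether it was 14.2 points without pair 3, 5.88 without pair 1 and 2.04 without pair 2 (6.02% against 3.98%), so its size rested mainly on pairs 1 and 2. The deficit in gains was -14.0 points without pair 1, -17.9 without pair 2 and -17.3 without pair 3. In the pooled lists, very CpG-dense losses were also met only by a gain more often, 26 of 197 (13.2%) against 32 of 601 (5.32%). Losses met by a loss numbered 39 in each group. The excess in losses is thus in part one of being overlapped at all. Gains met only by a loss were 24 of 388 (6.19%) against 31 of 3158 (0.982%).

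Direction disagreed between pairs more often in very CpG-dense regions. Of 88 overlaps between lists in which both regions were very CpG-dense, 66 (75%) had the same direction, 49 as gains and 17 as losses. Of 1154 overlaps between other regions 1123 (97.3%) did, 1106 as gains and 17 as losses. Where an overlap held a loss, opposite directions outnumbered shared losses in both groups, 22 against 17 in very CpG-dense regions and 31 against 17 in others. Nearly all overlaps of other regions were between gains, so the contrast in shares is not separate from the share of gains. By pairs of lists the very CpG-dense shares were 81.3% of 32 (pairs 1 and 2), 66.7% of 27 (pairs 1 and 3) and 75.9% of 29 (pairs 2 and 3), against 97.7%, 96.7% and 97.5%. In 66 further overlaps only 1 of the regions was very CpG-dense, and the other had a median density of 16.1 (range 2.63 to 19.9).

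Recurrence was also compared within bins of site number, length and control level. Among regions with 30 or more counted sites, 27.2% ± 2.56 of very CpG-dense regions were met in the same direction in another list, against 75.8% ± 6.18 of the others. At 20 to 29 sites the shares were 29.3% ± 11.6 and 58.8% ± 1.04. By length, regions of 50 to 74 bp were met about equally, 20.3% ± 2.75 against 21.6% ± 2.97 (exact sign-flip p = 0.75). At 150 bp or more the shares were 34.3% ± 9.71 and 65.6% ± 1.88. By control level the contrast changed sign: at 0.2 to 0.4 the shares were 17.5% ± 5.92 and 39.8% ± 0.857, at 0.4 to 0.6 they were 27.4% ± 6.67 and 25.8% ± 3.53 (exact sign-flip p = 1), and at 0.6 to 0.8 they were 23.5% ± 5.50 and 13.7% ± 2.16, higher in 3 of 3 pairs (exact sign-flip p = 0.25).

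**Figure D3:**
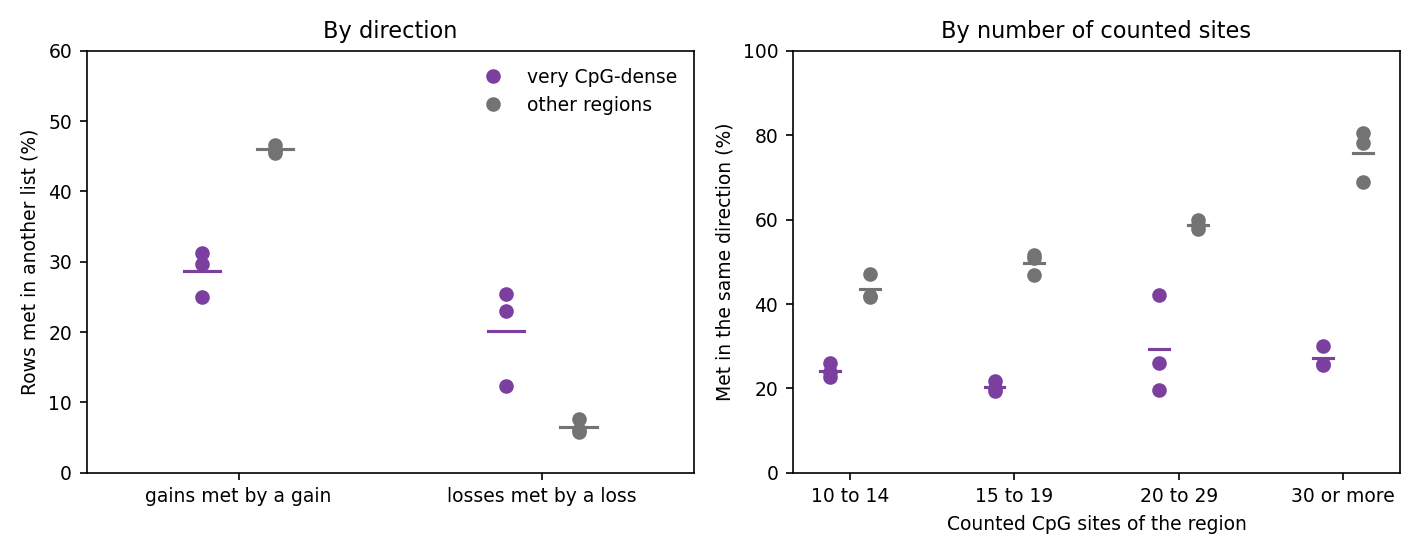
Share of listed regions overlapped in another pair's list, with 1 point per pair and a bar at the mean, for very CpG-dense (purple) and other regions (grey): by direction (left) and, for overlap in the same direction, by number of counted CpG sites (right). Dense gains average 28.6% against 46.0%, dense losses 20.2% against 6.50%, and at 30 or more counted sites the shares are 27.2% and 75.8%.

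Overlapping regions were merged into distinct ones, and a merged region was taken as very CpG-dense when every listed region in it was. Of 454 such merged regions, 385 (84.8%) appeared in 1 pair, 62 (13.7%) in 2 and 7 (1.54%) in all 3. Among all 3313 merged regions 272 (8.21%) appeared in all 3. Levels at these 272 were tested with limma on the logit scale, and 5 of the 7 very CpG-dense regions rose, 1 fell and 1 did not pass at an adjusted p under 0.05. Over all 272 regions 96.0% rose and 0.735% fell. Groups of libraries did not overlap at 6 of the 7 regions, against 96.3% of the 272. All were chosen because each pair had listed them, so these calls repeat the choice of the lists.

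HES1, a transcriptional repressor that is a classic target of Notch signalling, carried one of the 5 shared gains. At chr3:194138095-194138225, near the downstream end of the gene, control libraries 1, 2 and 3 stood at 0.152, 0.164 and 0.148 and overexpressing libraries at 0.321, 0.310 and 0.307. The 3 values of each group lay close together and far from the other group, a rise of 0.158 ± 0.0120 (SD, n = 3; limma adjusted p = 7.54e-05).

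Near the start of PAQR9, which encodes a membrane protein of the progestin and adipoQ receptor family, the region chr3:142963546-142963780 was the smallest of the shared gains. Its control levels were 0.0660, 0.0688 and 0.05 and its overexpressing levels 0.130, 0.145 and 0.117. Every overexpressing library lay above every control, a rise of 0.0692 ± 0.00627 (limma adjusted p = 0.000662). Its 88 bp listed in pair 3 lie inside the PAQR9 sequence shown above. Pairs 1, 2 and 3 listed 86, 76 and 30 counted sites in the merged region. Levels of different pairs, and their spread, may therefore compare different CpG sites.

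The region chr5:115602125-115602333 spans the start of TICAM2-AS1 and lies within 1 kb of an end of TICAM2, the gene of a Toll-like receptor adaptor, and of the readthrough gene TMED7-TICAM2. Control levels were 0.0958, 0.120 and 0.0822 and overexpressing levels 0.215, 0.226 and 0.195. It rose by 0.112 ± 0.00689 (limma adjusted p = 0.000451), with no overlap between groups. Its counted sites numbered 54, 33 and 29 in pairs 1, 2 and 3, so these levels too may cover partly different CpG sites.

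At LINC01132, a long noncoding RNA gene, the region chr1:234723165-234723236 was already largely methylated in controls, at 0.664, 0.585 and 0.641, and reached 0.872, 0.872 and 0.827. This was the largest of the shared gains, 0.227 ± 0.0530 (limma adjusted p = 9.72e-05). The intergenic region chr5:133027871-133027929, centred at -1351 bp from the start of ZCCHC10 (negative is upstream), was nearly unmethylated in controls, at 0.0334, 0.0271 and 0.0341, and stood at 0.197, 0.186 and 0.199 in overexpressing libraries. It rose by 0.163 ± 0.00351 (limma adjusted p = 1.36e-05), the tightest of the shared gains over the 3 pairs.

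The shared loss was in GRIN2D, which encodes an NMDA receptor subunit, inside the gene body at chr19:48398668-48398870. It fell from 0.571, 0.575 and 0.582 in the controls to 0.395, 0.298 and 0.312 (difference -0.241 ± 0.0566, limma adjusted p = 0.000229). The overexpressing libraries were more spread out than the controls. Pair 1 listed 57 counted sites there and pairs 2 and 3 listed 76 each, so this spread may in part compare different CpG sites. A second very CpG-dense GRIN2D region, at chr19:48443777-48443864, was listed as lower in pair 3, by 0.158 from a control level of 0.593. KCTD12, the gene of an auxiliary subunit of GABA-B receptors, had the region that did not pass. At chr13:76886235-76886402, which reaches into its promoter window, controls stood at 0.461, 0.590 and 0.326 and overexpressing libraries at 0.703, 0.461 and 0.532. The groups overlapped, with differences of 0.241, -0.129 and 0.206 (limma adjusted p = 0.232).

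**Figure D4:**
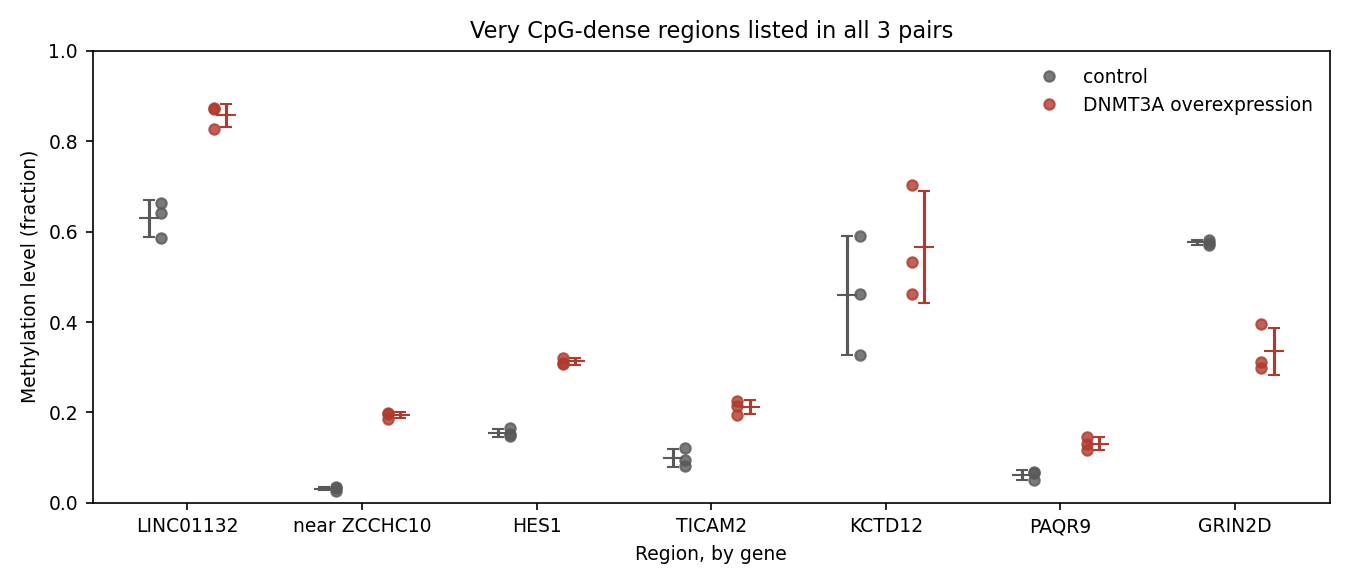
Methylation levels (fraction) of the 7 very CpG-dense regions listed in all 3 pairs: each point is 1 library, grey for control and red for DNMT3A overexpression, with the mean and SD of the 3 libraries beside the points. The red points lie above the grey ones at LINC01132, near ZCCHC10 and at HES1, TICAM2 and PAQR9, below them at GRIN2D, and overlap them at KCTD12.

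Of the 62 very CpG-dense regions in exactly 2 pairs, 29 were higher in both, 14 lower in both and 19 in opposite directions. No test over 6 libraries was possible for them. The largest of the gains was in the body of CACNA1H, a T-type calcium channel gene, at chr16:1181369-1181444. It stood at 0.338 and 0.423 in control libraries 2 and 3 and at 0.754 and 0.689 in the overexpressing ones. In SFMBT2, a Polycomb-group gene, the region chr10:7410846-7411000 went from 0.0371 to 0.375 in pair 1 and from 0.202 to 0.392 in pair 3. Pair 1 listed 32 counted sites there at a density of 41.0, and pair 3 listed 39 at 25.3. The levels of these pairs thus cover partly different CpG sites. The next gains were an intergenic region at chr7:99580198-99580425 (mean difference 0.263), a region in MNT, the gene of a MAX-binding repressor (chr17:2393424-2393869, 0.258), and the start of the metalloprotease gene ADAMTS12 (chr5:33892138-33892208, 0.244).

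Losses in 2 pairs included NKX6-1, a homeodomain factor gene of pancreatic beta cells and the neural tube. Its region at chr4:84493185-84493305, inside the gene, stood at 0.584 and 0.577 in control libraries 1 and 2 and at 0.331 and 0.300 in the overexpressing ones, 4 values that fall into separate ranges. Pair 1 listed 26 counted sites there at a density of 35.1 and pair 2 listed 28 at 23.1. The pairs may therefore cover partly different CpG sites. Beside JUN-DT, the divergent transcript of the JUN gene, the region chr1:58815419-58815512 stood at 0.320 and 0.326 in control libraries 1 and 3 and at 0.0679 and 0.101 in the overexpressing ones. The other losses of this rank were at LOC124900405 (chr18:75455769-75455841, mean difference -0.276), COLEC11, a collectin gene (chr2:3606646-3606734, -0.250), and the zinc finger gene ZNF844 (chr19:12064952-12065046, -0.249). Among all 15 losses of 2 or 3 pairs, 5 met a promoter window, as did 4 of the 34 gains and 6 of the 20 regions in opposite directions.

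Where lists hold the same stretch in opposite directions, levels must differ between libraries of at least 1 group. Overlap was by at least 1 bp, however, so the stretches of a merged region may differ between lists. At DNASE1L2, for example, pair 2 had 19 counted sites and pair 3 had 35, and at DIPK2A they had 37 and 105. Over the 20 opposite regions the range of control levels had a median of 0.220 and that of overexpressing levels 0.171. These ranges may in part compare different CpG sites. PLEKHG5 showed the widest swing, over the 72 bp printed above. Its level was 0.719 in control library 1 and 0.290 in overexpressing library 1, but 0.307 and 0.582 in pair 2. GRB10, an imprinted gene whose product binds the insulin receptor, stood at 0.429 and 0.659 in pair 1 and at 0.765 and 0.483 in pair 2 (chr7:50783041-50783198). At GRB10 the control levels lay on either side of both overexpressing levels, while at PLEKHG5 the groups interleaved.

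Other opposite regions lay in or near CPLX1, a complexin gene (differences of -0.236 and 0.320), SPHK2, a sphingosine kinase gene (-0.243 and 0.260), DIPK2A (-0.195 and 0.256), DNASE1L2 (0.212 and -0.229), PDXDC1 (-0.187 and 0.206) and RYR1, the calcium release channel gene of skeletal muscle (-0.205 and 0.161). The remaining one of the 10 widest, beside KCTD12, was intergenic, at chr9:133275170-133275226 (0.145 and -0.255). The read depth of these regions is unknown, and its part in the disagreement was not tested.

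Of the 12 regions that were the 2 largest of their direction in a list, 3 were met in the same direction by another list. TMEM168 (chr7:112790357-112790412) stood at 0.857 in control library 2 and 0.0223 in overexpressing library 2, and GRID1, a delta-type glutamate receptor gene (chr10:86363322-86363373), at 0.0336 and 0.727 in pair 1. They rested on 14 and 11 counted sites and no other list held them. SETDB1, a histone H3 lysine 9 methyltransferase gene (chr1:150925561-150925624), stood at 0.723 and 0.376 in pair 1, and the tyrosine kinase gene FES (chr15:90884497-90884559) at 0.458 and 0.0310 in pair 3. LOC102723842 (0.478 and 0.0972 in pair 2), FMR1NB (0.886 and 0.458 in pair 3), a region at chr8:23523118-23523175 (0.175 and 0.550 in pair 2) and TMEM215 (0.198 and 0.560 in pair 3) were likewise listed once. GNA11, a G protein alpha subunit gene (chr19:3097707-3097795, 0.335 and 0.663 in pair 3), was met as a gain by another list, as were the SFMBT2 and CACNA1H gains. PLEKHG5 was listed in opposite directions.

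The densest region of the set was the ADAMTS2 promoter stretch printed above, at 49.3 counted sites per 100 bp, which stood at 0.0619 in control library 3 and 0.207 in overexpressing library 3. Next came FLT4, the VEGFR-3 gene (chr5:180619148-180619211, density 48.4, 0.45 and 0.315 in pair 1), a scaffold region (KI270733.1, density 48.1, 0.0290 and 0.186 in pair 3), NKX2-2, a homeodomain factor gene (density 47.2, 0.464 and 0.616 in pair 3), and EIF4E3 with GPR27 (density 46.6, 0.668 and 0.471 in pair 1). The longest ran from 318 bp in PRDM16 (0.397 and 0.583 in pair 2) to 481 bp in DIPK2A, with 105 counted sites. Between them came CELSR3 at 430 bp (0.553 and 0.370 in pair 2), USP44 at 419 bp (0.668 and 0.532 in pair 3) and C2CD4B at 379 bp (0.0505 and 0.239 in pair 3). Of these 5, only the C2CD4B region was met in the same direction by another list.

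In all, 39 genes lay within 1 kb of at least 2 separate merged very CpG-dense regions, in the same or different pairs. COL9A3, a collagen gene, had 3 regions within 1 kb of each other, each listed as higher in a different pair: from 0.256 to 0.381 in pair 1, from 0.440 to 0.746 in pair 2 and from 0.406 to 0.561 in pair 3. BCOR, the gene of a Polycomb corepressor on chromosome X, had regions of both directions. The partly methylated one at chrX:40107572-40107717 was lower in pairs 1 and 2 (0.661 to 0.496 and 0.611 to 0.451), and those at chrX:40152216-40152275 and chrX:40156851-40156938 were higher in pair 2 (0.0565 to 0.237 and 0.0198 to 0.103). NKX3-2 had 2 gains, both in pair 3, and a region in opposite directions. Both regions of ALDH1A3, a retinaldehyde dehydrogenase gene, were lower (0.724 to 0.481 in pair 2 and 0.555 to 0.355 in pair 3), as were those of EPB41L3, COMTD1 and EXOC3L2. Those of DMRTA2 and CACNA1H were higher, and FOXF2 had 1 of each.

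Gene lists were read against all listed regions, of which 81.6% were gains and 13.5% very CpG-dense. Gains made up 66.3% of the very CpG-dense regions themselves, the share to set beside the higher and lower counts below. Of 193 listed regions at developmental transcription factor genes 40 (20.7%) were very CpG-dense, 25 higher and 15 lower. They fell into 29 merged regions, 18 higher, 9 lower and 2 in opposite directions. The median difference of the 40 was 0.124, against 0.132 over all 585. SOX9, a factor of cartilage and bile duct development, was higher in 2 pairs (0.1 to 0.225 and 0.0566 to 0.209), as was a region of GATA2, a blood stem cell factor (0.0310 to 0.140 and 0.0646 to 0.175). A second GATA2 region at the gene's start went from 0.177 to 0.0239 in pair 1 and from 0.0219 to 0.192 in pair 3. Regions near FOXI3, FOXP2 and ONECUT1, a liver-enriched factor, were listed as lower in 1 pair each.

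At ion channel and synaptic genes 27 of 121 listed regions (22.3%) were very CpG-dense, 19 higher and 8 lower, with GRIN2D and CACNA1H above among them. KCNJ6, a G-protein-gated potassium channel gene, held a loss (chr21:37916169-37916257, 0.691 to 0.447) and a gain (chr21:37916349-37916509, 0.413 to 0.603) in pair 2. Zinc finger genes had 9 of 52, 4 higher and 5 lower, and 57.7% of all their listed regions were gains. Genes known for methylation in cancers had 7 of 30, 4 higher and 3 lower. MGMT, a DNA repair gene often methylated in tumours, was among the latter (0.490 to 0.212 in pair 1), and DKK1, a WNT antagonist, was higher (0.0159 to 0.113 in pair 3). BMP6 was higher in 2 pairs (mean difference 0.219).

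Imprinted genes had 7 very CpG-dense regions of 37, 3 higher and 4 lower, while 75.7% of all 37 were gains. The PLAGL1 and HYMAI promoter, methylated on one parental copy in normal tissue, was listed in pair 3 at 0.388 and 0.219, and a region near an end of KCNQ1 and TRPM5 in pair 2 at 0.720 and 0.478. The list of DNA methylation and Polycomb genes had 2 of 18, both higher and both in TET3, which encodes a 5-methylcytosine dioxygenase. The merged region they belong to also held a pair 2 region just under the threshold (density 19.8). Hepatocyte and lipid genes had 0 of 3 and clustered protocadherins 0 of 1, which shows only that no such region was called there. Markers of other cell types had 1 of 4, EPCAM, an epithelial adhesion gene (0.287 to 0.424 in pair 2). The files hold no expression, so the identity of the line could not be checked against its markers.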

How the data were processed

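DNA spiked with lambda phage DNA was digested with MspI before bisulfite conversion, per the labels' protocols. The submitters' processing notes name hg38 as the build. Aligner, caller and calling thresholds: not given in the sources used here. Per the file headers, the deposited lists give the 2 libraries' mean levels over each region (a fraction), its counts of CpG sites, its length, the signed difference and an area score of the authors, which was not used as evidence. The authors' mapping rate and MspI cutting efficiency are percent values. The deposited difference equalled overexpressing minus control within 1e-12.

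Density was 100 × counted CpG sites / length. An overlap of 1 bp or more counted as shared between lists. A merged region's level in a library is the mean weighted by CpG sites. The listed stretches of a merged region could differ between pairs, so its levels in different pairs may cover different CpG sites. The 272 merged regions listed in all pairs were fitted together with limma 3.58.1 in R 4.3.3 on log2 odds of the levels with an offset of 0.01, with Benjamini-Hochberg adjustment over all 272 and no replicate block. This step was tested on simulated data. Shares were compared over the 3 pairs with an exact sign-flip test. Positions came from the RefSeq gene table (20056 protein-coding and 18330 long noncoding RNA genes) and promoter table of GRCh38.p14.

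The authors compared same-numbered libraries. Deviations from the group means correlated at 0.393, 0.295 and 0.313 between same-numbered libraries over the 272 regions (-0.131 to -0.201 between others). Both levels of a pair were averaged over the same listed stretch, while stretches could differ between lists. These correlations therefore cannot show whether the libraries were paired. The limma values printed have no block, and a fit with it was an alternative.

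The set and the gene lists were chosen with earlier results of these data known. Named regions were, by a written rule, the largest of each direction among merged regions in 3 and in 2 pairs, the 10 widest opposite ones, the 2 largest of each direction per list, the 5 densest and 5 longest, those at the threshold, and genes with several regions. The patterns behind the gene lists were corrected after their matches were seen, and members of the lists were named after their values were seen. Bins of counted sites, length and control level, promoter windows and distances to starts were added after seeing the data.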

Additional observations from a re-analysis of the deposited data

How the results depend on the processing

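Depth per region is unknown, so no result could be tested for it, and the coverage of each strand, which bears on which regions reach the density threshold, was not tested either. With the replicate number as a block, limma again called 5 very CpG-dense regions higher and 1 lower. No call changed, pairing included, and leaving out any pair or any single library gave 5 and 1 throughout. With merged regions that held at least 1 very CpG-dense listed region, 21 of 24 were higher. At a density of at least 18 it was 13 of 17, and at 25 or more it was 2 of 4. Over all 272 regions, 261 were called higher in these fits, 264 with the block, and 258 to 264 without a pair or library. Nearly every region listed in all pairs was thus called, so these counts repeat the choice of the lists. Each of the 7 regions kept its direction and side of the threshold under all 18 alternatives in which it could be fitted.

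At a density of at least 18 the share of gains was 69.7% (a difference of -14.5 points from the other regions), the share near a gene end 45.6% (26.3 points above), the share met in the same direction 30.04% (a difference of -9.44) and the median gain 0.181. At 25 they were 62.2% (-20.8), 56.3% (34.6), 25.8% (-12.8) and, for the gain, 0.160. With at least 10 CpG sites the differences from other regions were -20.6 points for gains, 27.3 for gene ends and -22.0 for recurrence. With absolute differences of at least 0.2, gains were 59.7% (-23.95). Near gene ends lay 64.0% with a window of 2 kb (32.0 points above) and 42.5% with protein-coding genes alone. Mean differences were 0.178 for gains and -0.200 for losses. Without each pair in turn, the share of gains ranged from 65.3% to 67.7% (differences from -18.6 to -16.3), the gene-end share from 50.1% to 50.4% (29.8 to 31.3), recurrence from 24.4% to 26.3% (-15.4 to -13.1) where only the mean was taken without a pair, the median gain from 0.169 to 0.174 and the median loss from -0.191 to -0.176. With that pair's list also out of the overlaps, an alternative added after seeing the data that leaves fewer lists to be met, recurrence was 16.1%, 13.7% and 18.2% without pairs 1, 2 and 3 (differences from -16.9 to -12.6). Under it, recurrence of gains was 19.5%, 17.7% and 18.9% (-17.9 to -14.0) and that of losses 9.67%, 6.02% and 17.0% (2.04 to 14.2). The direction of every one of these contrasts held under these alternatives.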
